A study of Homo sapiens with 2 samples.

Results

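Long non-coding RNA (lncRNA) genes held 2659 distinct peaks of 96682 in replicate 1 and 2735 of 105125 in replicate 2. These are the peaks whose listed gene is a GENCODE 29 lincRNA, antisense, processed transcript, sense intronic, sense overlapping or bidirectional promoter gene. The entries FP236383.1, FP671120.1 and AL627171.2, the genes named SNHG and every peak over a small RNA gene or a coding exon of the same strand were left out. The retained peaks made up 2.75% and 2.60% of all distinct peaks and 1.44% and 1.48% of the reads in them. They lay in 1575 genes, 781 of which had a peak in both libraries.

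The study sequenced 2 libraries of cytoplasmic RNA from HEK293T, an established human embryonic kidney cell line, with a Qiagen microRNA library protocol, in search of RNA elements that associate with CCR4-NOT. CCR4-NOT is the main complex that shortens the poly(A) tails of messenger RNA. Both libraries belong to 1 group labelled TRACER, a word the labels do not explain, and both had doxycycline at 3 ug/mL for 24 hours, a drug used to switch on introduced genes. No input, untreated or other control library was analysed here, so peaks cannot be set against a background, and no difference between conditions was tested. Nothing in the labels states that the replicates came from separate cultures, and their spread may be only technical.

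Long non-coding RNAs are transcripts longer than the small RNA classes that have no known protein product. Some stay in the nucleus and organise chromatin or nuclear bodies, such as XIST, MALAT1 and NEAT1, while others are exported and bind proteins or microRNAs in the cytoplasm. NORAD is a cytoplasmic lncRNA whose repeated units bind Pumilio proteins, translational repressors that recruit CCR4-NOT through the element UGUANAUA. Many lncRNA genes also contain retrocopies of messenger RNAs, called processed pseudogenes, in their introns, or share sequence with relatives elsewhere in the genome. A short read from such a stretch cannot be assigned to 1 of the copies.

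The Pumilio elements that lay whole under peaks of both libraries are shown first, because they are the motif of the list below that stood furthest from the share of bases covered. Each line gives 48 nt of the GENCODE transcript, 5′ to 3′, with T for U and the elements in capitals. The windows lie on GRCh38 at chr20:36048468-36048515, minus strand, for NORAD and at chr12:29391708-29391755, plus strand, for OVCH1-AS1. Those of HCG11 and AC005082.1 lie at chr6:26523739-26523786 and chr7:23207314-23207361, both plus strand.
NORAD: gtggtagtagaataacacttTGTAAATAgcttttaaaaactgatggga
OVCH1-AS1: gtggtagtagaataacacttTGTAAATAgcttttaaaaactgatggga
HCG11: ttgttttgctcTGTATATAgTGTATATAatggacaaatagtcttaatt
AC005082.1: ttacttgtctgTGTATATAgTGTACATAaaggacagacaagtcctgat
The first 2 lines are the same sequence in different genes, and the last 2 each hold a pair of elements 1 nt apart.

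The next lines come from genes that carry no long stretch of NORAD. They lie at chr3:14943066-14943113, minus strand (FGD5-AS1), chr1:1401986-1402033, plus strand (AL391244.1), chr2:110382921-110382968, minus strand (LINC01106), and chr2:109988537-109988584, plus strand (LINC01123). The windows of JPX and EPB41L4A-AS1 lie at chrX:73947367-73947414 and chr5:112162238-112162285, both plus strand.
FGD5-AS1: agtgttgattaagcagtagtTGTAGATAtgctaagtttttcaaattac
AL391244.1: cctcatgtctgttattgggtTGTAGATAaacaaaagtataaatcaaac
LINC01106: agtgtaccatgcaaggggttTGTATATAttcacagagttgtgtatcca
LINC01123: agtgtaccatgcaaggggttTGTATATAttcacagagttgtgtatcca
JPX: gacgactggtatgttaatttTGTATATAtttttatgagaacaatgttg
EPB41L4A-AS1: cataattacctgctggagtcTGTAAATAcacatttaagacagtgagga
LINC01106 and LINC01123 again carry 1 sequence at separate places of chromosome 2.

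Few reads stood behind most of these peaks. The median lncRNA gene peak was 23 nt wide with 4 reads in replicate 1, and 25 nt wide with 5 reads in replicate 2, against 27 and 28 nt and 6 reads for all peaks. Peaks of 50 or more reads numbered 48 and 55. Reads in a peak are not normalised, the number of reads sequenced is not known from these files, and a read may count in more than 1 peak. Shares below carry exact Clopper-Pearson 95% intervals, which cover counting error only.

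Somewhat more than 1 in 2 of the lncRNA gene peaks were found in both libraries, a smaller part than of all peaks. A peak of replicate 2 met 1437 of the 2659 peaks of replicate 1 by 1 nt or more, or 54.0% (52.1 to 56.0), where all peaks gave 60.6%. Starting from replicate 2, it was 1425 of 2735 peaks, or 52.1% (50.2 to 54.0), where all peaks gave 55.9%. Among peaks of 3 to 4 reads 31.2% and 30.3% had a partner, and all peaks of that class gave 33.7% and 27.7%. Among peaks of 10 to 19 reads the share was 90.9% and 84.4%, beside 88.2% and 82.6%. Peaks of 5 to 9 reads stood above all peaks of that class in both libraries, at 69.1% (65.6 to 72.4) and 61.3% (57.9 to 64.6) against 64.5% and 55.9%. All 48 peaks of at least 50 reads in replicate 1 and 54 of 55 in replicate 2 had a partner. Peaks of 3 reads made up 34.6% and 30.7% of the lncRNA gene peaks but 23.5% and 21.4% of all peaks.

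**Figure D1:**
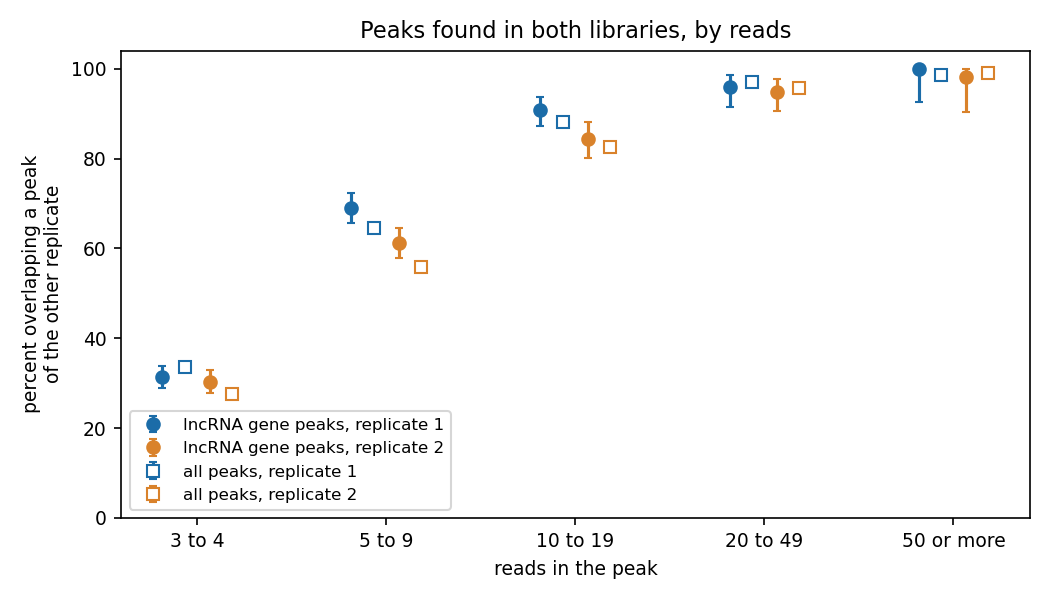
Percent of peaks that overlap a peak of the other replicate by at least 1 nt (vertical axis) by the reads in the peak (horizontal axis), for lncRNA gene peaks (filled circles) and all peaks (open squares) of each replicate. Bars are exact 95% intervals; lncRNA gene peaks rise from 31.2% and 30.3% at 3 to 4 reads to 96.0% and 94.9% at 20 to 49 reads.

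Across genes, reads in the libraries correlated with Pearson's r of 0.872 and Spearman's rho of 0.765 on the log2(reads + 1) scale over the 781 genes with a peak in both. Over all 1575 genes the values were 0.535 and 0.483. Genes are not independent replicates. The other 794 genes had a peak in 1 library only, 427 in replicate 1 and 367 in replicate 2, with a median of 3 reads and at most 21. Of 105 genes with at least 50 reads in a library, 14 differed between the libraries by at least 1 on the log2(reads + 1) scale. In bulk RNA, more cells and more RNA per cell cannot be told apart. In 6 of the 14 genes replicate 1 was higher, led by AC024563.1 with 65 reads in replicate 1 and 25 in replicate 2. In the other 8 replicate 2 was higher, led by ASH1L-AS1 with 19 and 64 reads, and in all 8 every read was exonic. Among the 6, every read was exonic in CU634019.4 and CU638689.1 and none in the rest. The share of wholly exonic genes among the 105 was not counted.

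By annotation class, lincRNA genes held 48.4% ± 1.21 (SD, n = 2) of the reads, antisense genes 32.9% ± 0.709 and processed transcripts 15.3% ± 0.167. Processed transcripts were the class with the largest part of its annotated genes detected, 105 of 601 genes in both libraries (17.5%). The share was 10.96% of 73 bidirectional promoter genes, 7.78% of 180 sense overlapping genes, 5.48% of 5587 antisense genes, 4.39% of 7635 lincRNA genes and 1.45% of 895 sense intronic genes. Bidirectional promoter genes had the highest share of summits in their own exons, 88.9% in replicate 1 and 93.0% in replicate 2. These shares rest on 36 and 43 peaks in 13 genes. TUG1, whose annotated exons span all its 10151 nt, gave 14 and 17 of these peaks. A protein-coding exon of the other strand lay under 186 lncRNA gene peaks in replicate 1 and 173 in replicate 2, and 7 and 9 of these met a peak on that strand.

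NORAD alone held 6.57% ± 1.24 of the reads, the 10 leading genes 29.7% ± 1.14, the 20 leading genes 37.97% ± 1.17 and the 100 leading genes 61.3% ± 0.731. NORAD had 1318 reads in replicate 1 and 1850 in replicate 2, in 30 peaks each. MALAT1, which sits in nuclear speckles, followed with 1096 and 821 reads. OVCH1-AS1, an antisense gene on chromosome 12, had 642 and 938. XIST, the RNA that coats the inactive X chromosome, had 883 and 673. The libraries ordered these genes differently: NORAD and OVCH1-AS1 were higher in replicate 2, MALAT1 and XIST in replicate 1.

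**Figure D2:**
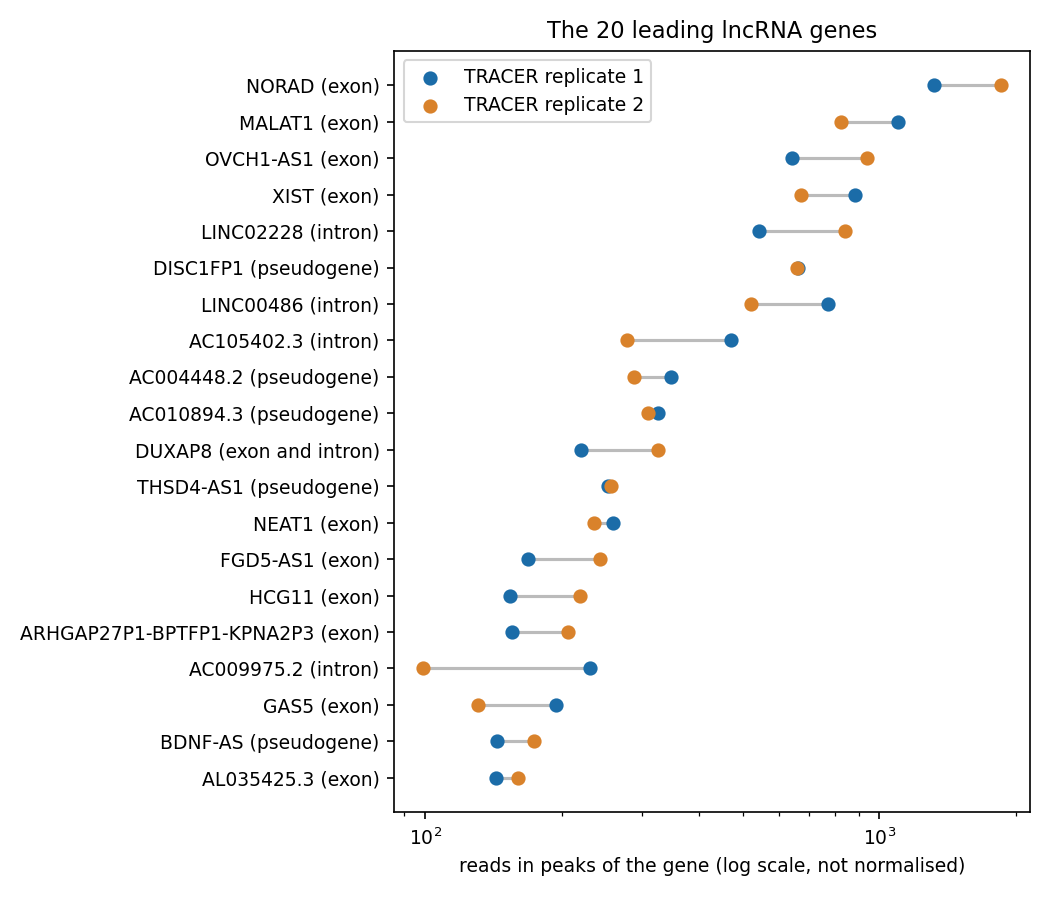
Reads in peaks of the 20 lncRNA genes with the largest mean share of lncRNA peak reads (horizontal log axis), 1 point per replicate, with the main place of those reads in parentheses. NORAD leads with 1318 and 1850 reads, and the genes below it mix exonic, intronic and pseudogene signal.

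Many peaks listed under a lncRNA gene lay outside its exons or on sequence shared with other genes. Summits lay in an exon of the lncRNA gene for 47.7% (45.8 to 49.6) of peaks in replicate 1 and 53.9% (52.0 to 55.7) in replicate 2. A GENCODE pseudogene on the same strand lay under 14.97% and 15.1% of peaks and 20.4% and 20.1% of reads. When the 21 nt around each exonic summit were searched in all GENCODE transcripts, 30.6% ± 0.703 of the exonic reads lay at summits with an exact copy in another gene at another place. Exonic stretches with a copy and introns over a GENCODE or RefSeq pseudogene together held 37.9% ± 1.62 of all lncRNA peak reads. Exonic stretches found in no other gene held 35.3% ± 2.88, and introns without a pseudogene 26.7% ± 4.51. Intronic summits were not searched for copies in this count. The introns without a pseudogene can thus also hold copied sequence, and part of the LINC02228 reads described below are among them.

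**Figure D3:**
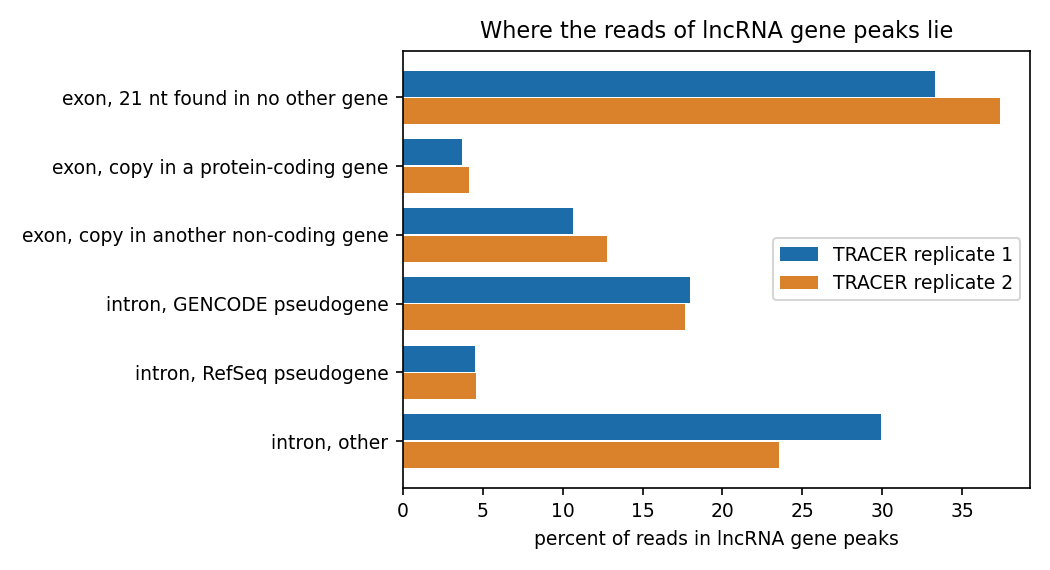
Percent of the reads in lncRNA gene peaks (horizontal axis) in 6 classes that do not overlap, for each replicate. The first class also holds the few summits too near a transcript end for the 21 nt search; exons without a copy form the largest class, 33.3% in replicate 1 and 37.4% in replicate 2.

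NORAD shared sequence with several genes that had peaks. Of its 5299 stretches of 21 nt, 51.1% occur in OVCH1-AS1, 26.9% in AL391294.1, 23.7% in HCG11, 5.72% in AC005082.1 and 4.11% in LINC02228. Of the exonic peaks of OVCH1-AS1, a gene named only for its position, 25 of 29 in replicate 1 and 27 of 28 in replicate 2 had a summit found in NORAD. HCG11 had a copy in any other gene at 6 of 12 peaks in replicate 1 and 6 of 14 in replicate 2. Over both replicates 11 of these matched OVCH1-AS1, and fewer matched NORAD. All exonic peaks of AC005082.1, 4 and 7, had a copy in another gene, and 9 of them matched NORAD. Together the 4 genes with peaks and a long NORAD stretch, OVCH1-AS1, HCG11, AC005082.1 and LINC02228, held 7.14% ± 1.65 of the lncRNA peak reads.

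The following 51 nt hold a NORAD summit and the matching places in OVCH1-AS1 and HCG11, with the shared 21 nt in capitals. They lie at chr20:36048408-36048458, minus strand, chr12:29391765-29391815, plus strand, and chr6:26524200-26524250, plus strand.
NORAD: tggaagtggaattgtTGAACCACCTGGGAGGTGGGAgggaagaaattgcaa
OVCH1-AS1: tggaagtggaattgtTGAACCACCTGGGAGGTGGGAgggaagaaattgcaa
HCG11: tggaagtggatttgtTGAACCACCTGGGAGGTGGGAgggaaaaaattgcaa
The NORAD peak held 92 and 135 reads, the OVCH1-AS1 peak 115 and 131, and the HCG11 peak 15 and 15. The first 2 lines do not differ in any base, so reads of this stretch cannot be told apart between NORAD and OVCH1-AS1. Of the 25 and 27 OVCH1-AS1 summits with a match in NORAD, 14 and 17 met a NORAD peak at the match and the others none. Among those with a peak at both places, the OVCH1-AS1 peak held a median of 0.654 and 0.677 times the reads of the NORAD peak. At LINC01106 and LINC01123, 4 of 5 matched pairs of peaks in replicate 1 and 5 of 6 in replicate 2 held equal reads.

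**Figure D4:**
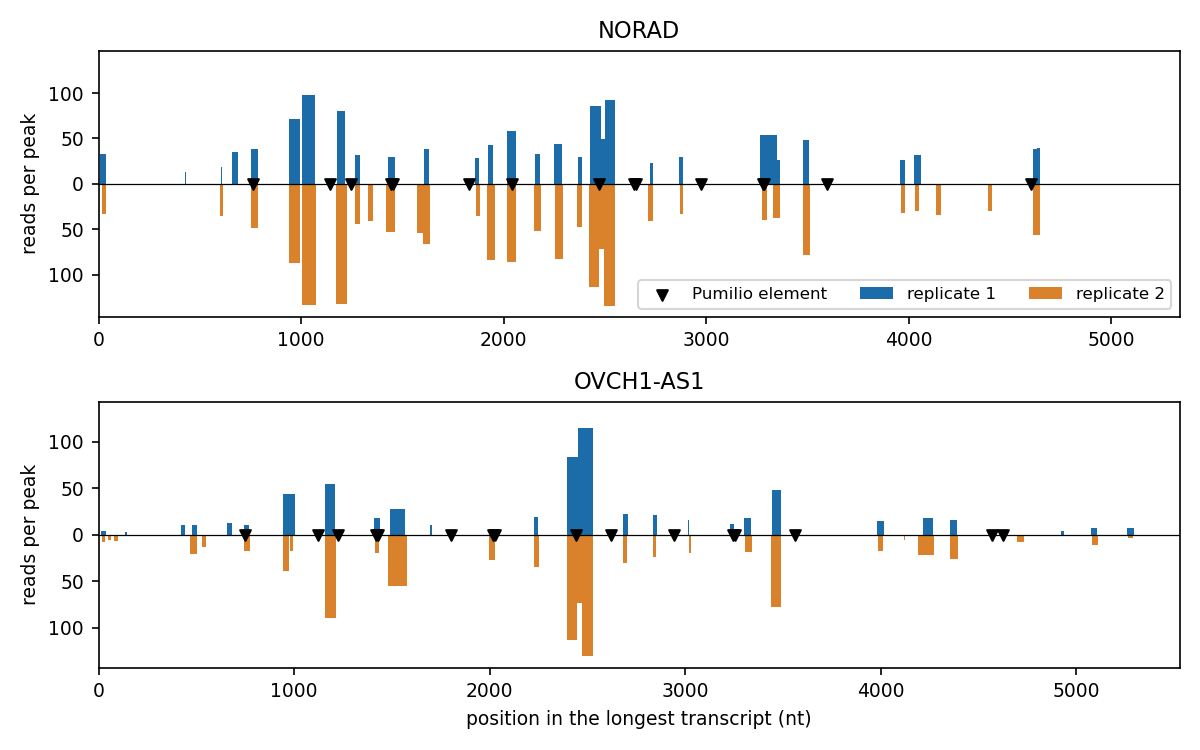
Peaks along the longest transcript of NORAD and of OVCH1-AS1 (horizontal axis, nt from the transcript start), with the reads per peak upward for replicate 1 and downward for replicate 2, and Pumilio elements as triangles. The tallest OVCH1-AS1 peaks (115 and 131 reads) match NORAD peaks of 92 and 135 reads, and NORAD also has peaks of 98 and 134 reads nearer its start.

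LINC02228 has its peaks in the same family of sequences, although only 1 peak in replicate 1 and 2 in replicate 2 lay in its annotated exons. It had 544 and 841 reads in 13 and 15 peaks. All of them fell in 2053 nt of chromosome 5, at chr5:25188480-25190532 on the minus strand. Transcripts of LINC02211 on the other strand and of AC099499.2 gave the sequence of 10 and 11 of these summits, and all of these 21 nt stretches occur in NORAD.

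Exonic peaks also lay on copies of messenger RNAs. At ARHGAP27P1-BPTFP1-KPNA2P3, a readthrough gene with 155 and 206 reads, 9 of 9 and 11 of 12 exonic summits matched another gene, in each case KPNA2, which encodes an importin, among others. PDXDC2P-NPIPB14P matched PDXDC1 at all its 11 and 9 peaks. All 11 and 7 exonic peaks of POLR2J4 had a copy in another gene, with POLR2J3, a copy of an RNA polymerase subunit gene, as the leading match. The strongest exonic region of AL359924.1, with 52 and 47 reads, matched ACTG1, which encodes cytoplasmic actin. This region lies at chr1:237927025-237927080, plus strand. The following 51 nt, chr1:237927026-237927076, lie within it, with the 4 nt of the deposited summit in capitals.
AL359924.1: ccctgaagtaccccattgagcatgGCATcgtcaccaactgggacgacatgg
The strongest region of AC239798.4, with 46 and 39 reads, matched histone H2B genes, among them HIST2H2BE. DUXAP8, by its name a pseudogene of a double homeobox gene, had 220 and 325 reads, and its exonic summits, all 12 in replicate 1 and 12 of 13 in replicate 2, matched its relative DUXAP10. In AC126365.1, all 7 exonic summits of each replicate matched SCD, a fatty acid desaturase gene. Of the 10 strongest exonic regions in different genes, 6 had a copy elsewhere.

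Pseudogenes inside introns accounted for several of the leading genes. All reads of DISC1FP1, 662 and 658, lay on TUBAP2, a processed alpha-tubulin pseudogene at chr11:90282560-90284172, plus strand. All reads of AC004448.2, 348 and 288, lay on RPS2P46, a ribosomal protein pseudogene. H3F3AP4, a histone H3.3 pseudogene, held 191 and 193 of the 326 and 310 reads of AC010894.3. HMGB1P6 held 177 and 186 of the 252 and 256 reads of THSD4-AS1, and AC104563.1 held 128 and 166 of the 144 and 174 reads of BDNF-AS, the antisense transcript of a neurotrophin gene. In all, peaks met 198 GENCODE pseudogenes, 138 of them in both libraries, and 25 of the 198 had names that start with RPL or RPS and a number, for cytoplasmic ribosomal proteins. Pseudogenes of these lncRNA genes without a peak, and the share of such names among all GENCODE pseudogenes, were not counted. Whether the 25 exceed that share is therefore not known. Of the peaks on pseudogenes, 70.1% (65.3 to 74.6) and 67.1% (62.3 to 71.6) had a partner in the other library. For introns without a GENCODE pseudogene the share was 46.5% (43.5 to 49.6) and 53.6% (50.3 to 56.9), and the peaks on pseudogenes also held more reads, with a median of 6 in introns against 4 where no pseudogene was annotated. The part of the read number in this difference was not tested.

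Introns without any pseudogene or other exon held 893 peaks in replicate 1 and 751 in replicate 2, with a median of 4 reads in each. A few short regions stood far above this. LINC00486 had all its 772 and 521 reads within 354 nt at chr2:32916229-32916582, plus strand. AC105402.3 had all its 471 and 278 reads within 126 nt at chr2:148881726-148881851, minus strand. LINC01492 had 143 and 149 reads within 430 nt at chr9:103204445-103204874, minus strand. AC009975.2 had 231 and 96 reads within 195 nt at chr2:49229635-49229829, minus strand, and the antisense gene AC009975.1 had 43 and 28 reads at the same place on the plus strand. Together with LINC02228, the 5 strongest such regions held 28.9% and 26.7% of the reads of this class. The genome sequence of the other 4 was not analysed here.

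Exonic peaks whose summit had no copy were led by MALAT1 with 1096 reads in replicate 1 and 821 in replicate 2, or 124 and 93.0 reads per kb of exon. NORAD had 472 and 535 reads at such summits, 88.4 and 100.2 per kb. The length used was all 5339 nt of NORAD, including the parts with a copy, so the density of its unshared part is not given. GAS5, a growth arrest transcript that hosts small nucleolar RNAs, had 53.4 and 36.1 per kb after its small RNA genes were left out, and AL391244.1 had 38.4 and 58.6. FGD5-AS1 had 168 and 232 reads, 32.7 and 45.2 per kb. XIST had 883 and 662 reads, but over 25264 nt of exons this came to 35.0 and 26.2 per kb. The exon length merges all annotated transcripts of a gene, so these densities depend on how many are annotated. NEAT1, the scaffold of paraspeckles, had 259 and 235 reads, 11.4 and 10.3 per kb. These genes were picked by reads, not by density. AC004080.5, with 26 and 39 reads on short exons, had 70.7 and 105.98 per kb, a range that overlaps those of MALAT1 and NORAD. The values of XIST lay below those of AL391244.1, GAS5 and NORAD in both libraries.

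Regions without a copy are shown for 5 genes, each shown as 51 nt around the summit with its deposited summit in capitals. MALAT1 held 76 and 85 reads at chr11:65500432-65500524, plus strand, XIST 40 and 41 at chrX:73851562-73851613, minus strand, and LRRC75A-AS1 55 and 32 at chr17:16441374-16441476, plus strand. NEAT1 held 31 and 34 at chr11:65426298-65426388, plus strand, and MAPKAPK5-AS1 24 and 38 at chr12:111841772-111841900, minus strand.
MALAT1: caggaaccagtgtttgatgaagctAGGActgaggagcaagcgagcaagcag
XIST: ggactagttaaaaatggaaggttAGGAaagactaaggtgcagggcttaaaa
LRRC75A-AS1: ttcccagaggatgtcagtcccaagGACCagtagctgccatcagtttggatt
NEAT1: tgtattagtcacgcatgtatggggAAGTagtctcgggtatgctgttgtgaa
MAPKAPK5-AS1: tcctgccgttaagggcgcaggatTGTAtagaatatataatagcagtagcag
None of these 5 windows holds a whole Pumilio element. The FGD5-AS1 region without a copy, with 27 and 35 reads, does hold one, shown above, and the regions of AL035425.3 (71 and 74 reads) and GAS5 (36 and 26) are not printed.

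Bases under peaks were richer in G than the rest of the same exons. In 344 genes with an exonic peak in each library, G made up 32.4% of the bases under peaks of replicate 1 and 33.1% in replicate 2, against 23.6% and 23.5% elsewhere. C made up 18.2% and 18.3% under peaks, against 23.3% in each library elsewhere. Of the 15 pentamers with the largest part of their sites under peaks in the library where it was lower, all 15 held CG and 0 held UGUA. The leading one, UCGGA, had 10.4% and 10.1% of its 308 sites under peaks, while all pentamers gave 2.43% and 2.88%. UGUAG, the start of 1 form of the Pumilio element, ranked 36th of 1024 with 6.29% and 7.81%. Runs of U and of A were rarely covered: UUUUU had 0.896% and 1.33% of its sites under peaks and AAAAA 0.632% and 0.874%. These pentamers were ranked on the values given, so no test applies.

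Summits lay towards the transcript start. On the longest transcript of each gene, 35.2% of 958 summits in replicate 1 and 34.7% of 1053 in replicate 2 were in the first 20% of its length, and 13.2% and 14.9% in the last. The median position was 0.323 and 0.333 of the length. The longest reading frame from an AUG did not stand out, as it took up 12.1% of the transcripts and 12.1% of their bases under peaks of both libraries.

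Of 14 motifs, the Pumilio element was the one most often under peaks. The exons of the 344 genes held 173 elements, and 26 of them (15.03%, 10.1 to 21.2) lay whole under peaks of both libraries, while 1.59% of the exonic bases did. The reversed sequence AUANAUGU, with the same composition, was covered at 2 of 162 sites (1.23%, 0.150 to 4.39). By the variable base, 14 of 69 UGUAUAUA sites, 3 of 18 UGUAGAUA, 3 of 28 UGUACAUA and 6 of 58 UGUAAAUA were covered, and their intervals overlap. The miR-101 site GUACUGU was covered at 3 of 53 sites (5.66%, 1.18 to 15.7), the miR-92 site GUGCAAU at 3 of 79 (3.797%, 0.790 to 10.7) and the miR-7 site GUCUUCC at 2 of 90 (2.22%, 0.270 to 7.80), and all these intervals include 1.59%. C-rich CCUCCC (2 of 1091 sites), the poly(A) signal AAUAAA (4 of 1090) and the AU-rich pentamer AUUUA (11 of 1866) all had an interval wholly below 1.59%. Sites had to be covered whole, whereas 1.59% counts single bases, so sites of any sequence tend to fall below it. The part of this in the low shares was not tested. For let-7 and miR-19, 0 of 82 and 0 of 71 sites were covered, which allows up to 4.40% and 5.06%.

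**Figure D5:**
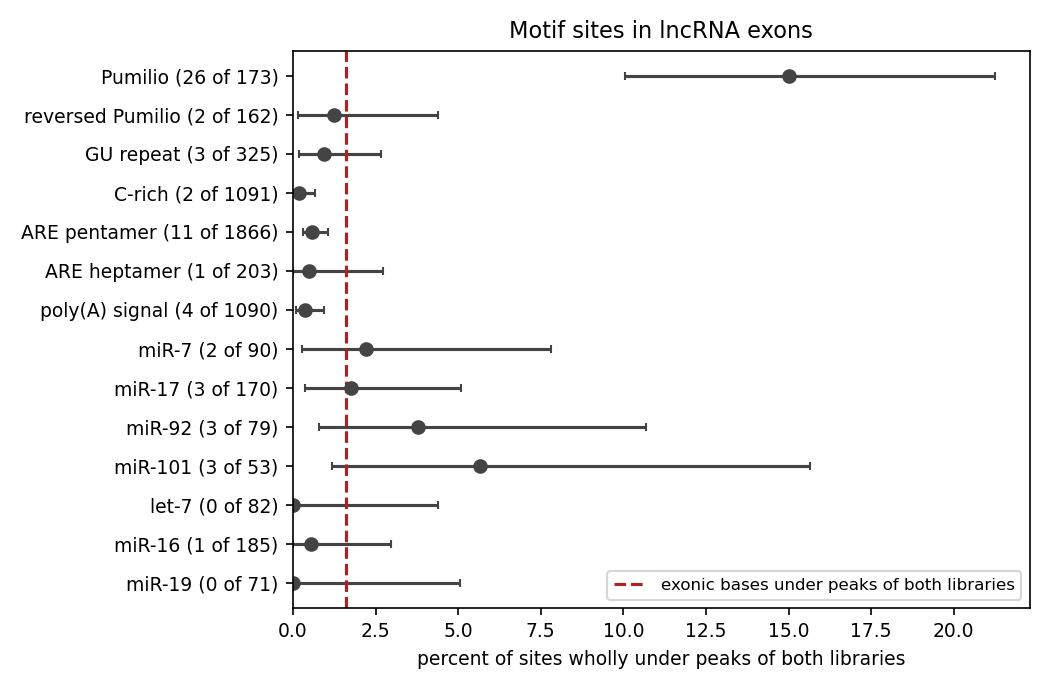
Percent of the sites of each motif in lncRNA exons that lie whole under peaks of both libraries (horizontal axis, with exact 95% intervals and the covered sites of all sites in parentheses). The dashed line marks the 1.59% of exonic bases under such peaks; the Pumilio element stands at 15.03% and its reversed form at 1.23%.

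The 26 covered elements lay in 15 genes, and NORAD with its copies held 15 of them. NORAD had 7 of its 15 elements covered, OVCH1-AS1 4 of 16, HCG11 2 of 16 and AC005082.1 2 of 4. Peaks of both libraries covered 14.5% of the exonic bases of NORAD and 10.3% of those of OVCH1-AS1. In HCG11 and AC005082.1 they covered 5.14% and 5.002%. Each of these shares is above the 1.59% of all genes together, so part of the Pumilio share goes with the dense peaks of these genes. Without NORAD and the genes with its stretches, 11 of 121 elements (9.09%, 4.63 to 15.7) were covered in 11 genes, beside 1.46% of the bases. These were single elements, in FGD5-AS1 (the only one of that gene), ARHGAP27P1-BPTFP1-KPNA2P3, AL035425.3, AL391244.1, LINC01106, LINC01123, JPX, COX10-AS1, EPB41L4A-AS1, MIR4458HG and TTN-AS1. Peaks of both libraries covered more than 1.46% of the exonic bases in all 11 genes but JPX (0.869%), COX10-AS1 (0.728%) and TTN-AS1 (0.223%). The largest shares were 9.32% in ARHGAP27P1-BPTFP1-KPNA2P3 and 8.03% in FGD5-AS1. How far the 9.09% goes with dense peaks in these genes was not tested. The FGD5-AS1 peak at its UGUAGAUA held 19 and 35 reads, and the strongest region of the gene contains it. The peaks over the elements of JPX, an activator of XIST, held 5 and 7 reads, and those of EPB41L4A-AS1 12 and 14. LINC01106 and LINC01123 share their element and count as 2 genes here.

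One of the 2 covered miR-7 sites lay in a cytoplasmic lncRNA. OIP5-AS1 is the human Cyrano RNA, which is known to pair with miR-7 through an extended site and to trigger its decay. It had 100 and 121 reads in 16 peaks each. Its exons hold the miR-7 seed match GUCUUCC 3 times, and the 1 at chr15:41300592-41300598, plus strand, lay under a peak of 9 reads in replicate 1 and 18 in replicate 2. The other 2 had no peak in either library. Upstream of the covered match, a run of 14 nt is complementary to the rest of miR-7, against 5 and 3 nt at the other matches. The miR-7 sequence (RefSeq, GRCh38.p14) has its seed in capitals, and the 30 nt of OIP5-AS1 at chr15:41300570-41300599 have the seed match in capitals.
hsa-miR-7-5p: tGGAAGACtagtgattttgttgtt
OIP5-AS1: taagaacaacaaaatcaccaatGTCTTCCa
The strongest region of OIP5-AS1 was another, at chr15:41300485-41300538, with 17 and 24 reads, and the site above was singled out for the known pairing, not for its share of reads.

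Nuclear lncRNAs were present although the RNA is labelled cytoplasmic. For scale, 10.5% of the 14971 annotated lncRNA genes of the 6 types had a peak and 5.22% had one in both libraries. Of 14 lncRNAs known for nuclear retention or chromatin roles, 10 had a peak, 9 of them in both libraries, and held 10.7% of the reads in replicate 1 and 8.06% in replicate 2. MALAT1, XIST and NEAT1 led. TUG1 had 99 and 107 reads, JPX 50 and 61, FIRRE, a nuclear organiser of the X chromosome, 48 and 53, and HOTAIR 28 and 44. MEG3 had 3 reads in replicate 1 only, and TSIX, KCNQ1OT1, MIAT and HOTTIP had no peak. The 9 in both libraries include FTX, whose 7 and 6 reads were all intronic, with 4 and 3 of them on a pseudogene. They also include PVT1, with 3 reads in each library, exonic in replicate 2 only. Of 9 lncRNAs listed here as cytoplasmic, all had a peak, 8 in both libraries, with 7.58% and 8.94% of the reads. NORAD made up most of these reads. The 8 include LINC-PINT, whose 10 and 5 reads were all intronic. GAS5 had 194 and 131 reads, OIP5-AS1 as above, and H19 20 and 44. Over genes with a peak in both libraries, the median exonic density was 9.75 and 10.3 reads per kb for the nuclear list. For the cytoplasmic list it was 12.7 and 9.68. The 384 lncRNA genes with a peak in both libraries and exonic reads in at least 1 had medians of 3.75 and 4.999. Unlike these 384, the lists also include genes without exonic reads. Whether nuclear RNA in the preparation takes part in the peaks of the nuclear list was not tested.

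Hosts of small RNAs kept peaks outside the small RNAs. The list of small nucleolar RNA hosts not named SNHG held GAS5, ZFAS1, DANCR and EPB41L4A-AS1, not every such host, and all 4 had peaks in both libraries. ZFAS1 had 47 and 22 reads and DANCR 40 and 20, both higher in replicate 1, whereas EPB41L4A-AS1 had 19 and 28. Of 61 microRNA host genes, 21 had a peak and 12 had one in both libraries. They held 0.657% of the reads, with 27.1% of these in exons. MIR3681HG led with 42 and 36 reads, all intronic, followed by MIR4435-2HG with 27 and 18 and MIR4458HG with 23 and 22. Of 10 imprinted lncRNAs, H19 and MEG3 had a peak. Of the lncRNAs reported to encode a small peptide, all 4 that are annotated as lncRNAs had a peak in both libraries, led by CRNDE with 31 and 19 reads, LINC00467 with 4 and 15 and LINC-PINT with 10 and 5. All LINC-PINT reads were intronic, and 4 and 11 of the LINC00467 reads lay on the pseudogene SNX25P1.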

How the data were processed

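RNA peaks of 2 TRACER libraries were used, 1 deposited list per library, called per library with CLIPper per the file names. GRCh38, STAR 2.7.11, UMI-tools 1.1.4 and cutadapt 4.2 are listed per the submitters' processing notes. No version or annotation of CLIPper is given in the sources used here. Each deposited score is a p-value per peak with no adjustment stated, and the deposited peak name holds a whole number of reads, not normalised, of at least 3. Per the file names, reads were filtered on mismatches, alignment score and the number of loci they matched.

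Gene types, exons and transcript sequences came from GENCODE 29. A coding exon was any exon of a protein-coding transcript, and small RNA genes were those of GENCODE on the same strand or of RefSeq (GRCh38.p14), whose table gives no strand. RefSeq alone removed 59 and 51 rows, mostly on transfer RNA and small nucleolar RNA genes, and its use was decided after the data were seen. Peaks listed under several genes counted once, except in values per gene. The midpoint of the thick interval was taken as the summit. Copies were exact matches of 21 nt in a gene that does not overlap on the same strand. This length was chosen after the data were seen. Motifs were counted once per genomic position in all exons. Genes named are the 20 with the largest mean share of reads, those of the 10 strongest exonic regions, those with a covered Pumilio element and the 3 leading members of each list. Others were named after their values were seen. Members and lists were chosen with earlier results of these data known. No p-values were computed. Functions were tested on simulated peaks. Python 3.11.15, pandas 2.3.3, NumPy 2.4.6 and SciPy 1.17.1 were used.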

Additional observations from a re-analysis of the deposited data

How the results depend on the processing

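The values rest on 2 libraries without a control, and most peaks on few reads. No paired analysis was possible because the design has only 1 group. With 1 library left out the overlap between libraries has no value, and the other results without replicate 1 or without replicate 2 ranged from 2659 to 2735 peaks, 47.7% to 53.9% exonic summits, 5.69% to 7.45% of reads in NORAD, 29.1% to 30.5% in the 10 leading genes, 30.1% to 31.1% of exonic reads with a copy, and 14.9% to 16.9% of Pumilio elements covered. The alternatives of GENCODE small RNA genes only, of NORAD and its relatives left out and of 31 nt copies, and every alternative for the reads with a copy, were chosen after seeing the data.

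At p at or under 1e-05 the mean number of peaks per library was 647.5, with 90.1% found in both, 10.6% of reads in NORAD, 45.1% in 10 genes and 39.6% of exonic reads with a copy. With at least 10 reads these were 552 peaks, 91.0%, 11.1%, 48.0% and 39.2%, and 58.9% of summits were exonic. Without peaks on pseudogenes, 50.3% were found in both, 56.8% of summits were exonic, NORAD held 8.25% of reads, 10 genes 34.3%, and 27.5% of exonic reads had a copy. Without peaks opposite a coding exon, 10 genes held 30.9% and 32.2% of exonic reads had a copy. With only CDS barred, 10 genes held 26.1% and 29.02% of exonic reads had a copy. With GENCODE small RNA genes only, 28.8% had a copy, and with 31 nt it was 27.7%. Without NORAD the leading gene was MALAT1 with 4.30%, 10 genes held 25.96% and 25.1% of exonic reads had a copy. Without NORAD and the genes with its stretches the values were 4.64%, 23.4% and 17.7%, and 9.09% of Pumilio elements were covered. The other alternatives moved the shares by less than the spread between replicates (for the Pumilio elements, within the interval) and the number of peaks by less than 1.5 times.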
